A study of Mus musculus with 12 samples.

Results

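Branched-chain amino acid catabolism was followed in mouse hind leg muscle through 10 genes of the pathway, chosen by symbol: Bcat2, Bckdha, Bckdhb, Dbt, Bckdk, Ppm1k, Ivd, Mccc1, Hibadh and Hibch. All 10 were found among the 22923 gene symbols of the expression files, each in a single row. The measurement was RNA sequencing of bulk muscle in 12 libraries, 3 in each of 4 groups. The comparison addressed how high fat feeding and loss of the small heat shock proteins αB-crystallin and HspB2 bear on muscle transcripts.

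The groups were wild-type (WT) and knockout (KO) male FVB/N mice at 22 weeks of age, each on normal chow of 3.1 kcal/g or on a high fat diet of 5.1 kcal/g given from 6 weeks of age, that is for 16 weeks. The KO mice lack Cryab and Hspb2 in every tissue, so the absence of either gene alone cannot be told apart from the absence of both, and the WT mice are littermates that the sample titles call Flox. Groups follow the titles, because the separate genotype label disagrees with the title in 6 of the 12 samples. Cryab lay at 412 to 837 FPKM (fragments counted per length of transcript and per depth of the library) in the WT libraries and at 0.845 to 1.75 FPKM in the KO libraries, so no library went against its title. The study calls its samples independent, but the labels do not say that each library is a separate mouse, and the p-values measure only the spread between these libraries.

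Libraries differed in what tissue they held. The summed FPKM of 7 B and T lymphocyte genes was 75.2, 87.2 and 82.3 in WT chow 2, KO chow 1 and KO chow 3, against 0.701 to 6.45 in the other 9 libraries. The sum of 7 adipocyte genes ran from 6.29 in WT high fat 1 to 1874 in KO chow 3. WT high fat 1 also had the highest sum of 12 genes of mitochondrial content, 14007 FPKM against 6667 to 10040 in the others. In the same library the sum of 8 slow and oxidative fibre genes was the lowest, at 378 FPKM. WT high fat 2 and 3 stood at 3084 and 2242 FPKM, WT chow 3 at 526, and the rest between 872 and 1966. The muscle markers were abundant, with sums of 39605 to 85583 FPKM, although Myh4 was listed at 0 in every library and Acta1 at 0 in WT chow 1 and KO high fat 2, values that look like failed estimates for genes of this tissue. In bulk RNA, fewer cells of a type and less RNA per cell cannot be told apart.

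Leucine, isoleucine and valine are broken down largely outside the liver, and skeletal muscle is a main site of their first step, a reversible transamination inside mitochondria. The resulting keto acids are committed to oxidation by the branched-chain keto acid dehydrogenase (BCKDH) complex, which is switched off when a dedicated kinase phosphorylates it and on again by a mitochondrial phosphatase. Each amino acid then follows its own branch of mitochondrial enzymes to acetyl-CoA or propionyl-CoA, and raised circulating branched-chain amino acids are a known companion of obesity and insulin resistance.

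All positions below are those of the GENCODE M21 annotation of GRCm38, the assembly that mm10 names, and all 10 genes are protein coding. Bcat2, the mitochondrial transaminase, lies at 45570153 to 45589711 of chromosome 7 (plus strand). Bckdha and Bckdhb encode the alpha and beta subunits of the decarboxylase of the BCKDH complex and lie at 25629946 to 25658981 of chromosome 7 (minus strand) and at 83925145 to 84124240 of chromosome 9 (plus strand). Dbt, the acyltransferase core of the complex, lies at 116513070 to 116549981 of chromosome 3 (plus strand). Bckdk, the inhibiting kinase, lies at 127904082 to 127910221 of chromosome 7 (plus strand). Ppm1k, the activating phosphatase, lies at 57506502 to 57535468 of chromosome 6 (minus strand). Ivd, isovaleryl-CoA dehydrogenase, and Mccc1, the biotin-carrying subunit of methylcrotonyl-CoA carboxylase, act in the leucine branch and lie at 118861954 to 118882909 of chromosome 2 (plus strand) and at 35959312 to 36000678 of chromosome 3 (minus strand). Hibch, 3-hydroxyisobutyryl-CoA hydrolase, and Hibadh, 3-hydroxyisobutyrate dehydrogenase, are successive steps of the valine branch and lie at 52844929 to 52920986 of chromosome 1 (plus strand) and at 52546228 to 52640389 of chromosome 6 (minus strand). The sources used here do not state that strand was kept in counting. Bckdha overlaps the opposite-strand gene B3gnt8 from 25629946 to 25635100 of chromosome 7, and within that stretch reads of both genes therefore cannot be told apart. B3gnt8 was listed at 0.902 to 2.01 FPKM. Bcat2 and Mccc1 likewise overlap annotated antisense RNA genes.

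Promoter windows, the 250 bases before the RefSeq start in GRCm38.p6, were held for 9 of the 10 genes and were searched on both strands for 4 motifs. These were the box CCAAT, the box of Sp-family factors GGGCGG, the nuclear receptor half-site AGGTCA, and the consensus of the mitochondrial regulator NRF1, named here without its letters. A match is a description of the letters and not a bound site. A set of 5 windows is shown because their genes carry the main contrast of these data: Ivd, Ppm1k and Mccc1, each lower in KO muscle on high fat diet than in every other library and rich in CCAAT, Bcat2 with the same expression pattern and no CCAAT, and Bckdk, the kinase that did not share the pattern. Each is written in the direction of its gene, and capitals mark CCAAT, or its reverse complement where that lies on the written strand. The windows are chr2:118861744-118861993 on the plus strand for Ivd, chr6:57535488-57535737 on the minus strand for Ppm1k, chr3:36000679-36000928 on the minus strand for Mccc1, chr7:45569903-45570152 on the plus strand for Bcat2 and chr7:127903823-127904072 on the plus strand for Bckdk.
Ivd: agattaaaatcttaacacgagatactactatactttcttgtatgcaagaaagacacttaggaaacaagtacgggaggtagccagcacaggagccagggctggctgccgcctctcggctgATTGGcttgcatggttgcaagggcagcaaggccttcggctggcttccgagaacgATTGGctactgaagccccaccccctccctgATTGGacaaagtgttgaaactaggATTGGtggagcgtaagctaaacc
Ppm1k: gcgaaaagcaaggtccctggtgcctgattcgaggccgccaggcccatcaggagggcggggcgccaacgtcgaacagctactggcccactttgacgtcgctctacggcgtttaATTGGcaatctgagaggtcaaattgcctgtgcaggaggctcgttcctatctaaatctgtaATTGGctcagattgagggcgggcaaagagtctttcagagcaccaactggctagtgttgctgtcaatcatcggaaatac
Mccc1: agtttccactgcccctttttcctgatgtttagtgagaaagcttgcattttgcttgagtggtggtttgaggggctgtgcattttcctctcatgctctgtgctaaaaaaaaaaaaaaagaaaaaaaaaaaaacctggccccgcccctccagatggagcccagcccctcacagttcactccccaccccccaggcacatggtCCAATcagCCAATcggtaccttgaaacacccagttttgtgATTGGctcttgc
Bcat2: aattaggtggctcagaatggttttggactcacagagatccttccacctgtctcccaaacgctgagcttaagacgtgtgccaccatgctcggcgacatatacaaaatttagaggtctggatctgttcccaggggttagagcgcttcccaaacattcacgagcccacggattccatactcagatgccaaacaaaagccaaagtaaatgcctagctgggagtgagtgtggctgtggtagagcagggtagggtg
Bckdk: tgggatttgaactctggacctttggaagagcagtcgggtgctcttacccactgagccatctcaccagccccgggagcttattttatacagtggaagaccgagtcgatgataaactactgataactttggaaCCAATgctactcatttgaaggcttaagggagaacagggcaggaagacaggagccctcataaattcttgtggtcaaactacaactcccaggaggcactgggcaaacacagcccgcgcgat

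CCAAT occurred 4 times before Ivd, 3 times before Mccc1, 2 times each before Ppm1k and Bckdhb, once each before Bckdk and Hibadh, and not at all before Bcat2, Bckdha and Hibch. Thus 6 of 9 windows held it, against 33.8% of all 32851 windows of the same length, of which 10.1% held it at least 2 times and 2.79% at least 3 times. GGGCGG occurred in 5 of 9 windows against 32.7% of all, AGGTCA in 2 of 9 against 14%, and the NRF1 consensus in 0 of 9 against 0.782%. The number of CCAAT matches in these windows did not follow the expression pattern member by member. That of Bcat2 had none, and that of Bckdhb, which lacked the pattern, had as many as that of Ppm1k. Those of Bckdk and Hibadh, also without the pattern, had 1 each. Bcat2 and Bckdhb have 2 windows each, of which only 1 is described here.

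Per length, Bckdha was the most abundant member at 122 ± 19.7 FPKM (SD over the 12 libraries) and Ppm1k the least abundant at 3.54 ± 0.479 FPKM. Hibadh followed Bckdha at 113 ± 17.2 FPKM and was below it in 10 of 12 libraries. Bckdk stood at 76.1 ± 15.03, Ivd at 53.9 ± 6.63 and Bcat2 at 39.8 ± 3.91 FPKM. Bckdk exceeded Ivd in 11 of 12 libraries, and Ivd exceeded Bcat2 in all 12. Hibch, at 31.2 ± 3.43 FPKM, and Bckdhb, at 30.0 ± 3.21 FPKM, were neighbours whose order held in only 8 of 12 libraries. Mccc1 at 12.3 ± 1.76 and Dbt at 10.2 ± 1.30 FPKM were lower still. Among the BCKDH subunits on this list the decarboxylase alpha subunit was thus the most abundant transcript and the acyltransferase the least, while Dld, the dihydrolipoamide dehydrogenase that the complex shares with others and that is not on it, averaged 144 FPKM. The kinase transcript exceeded the phosphatase transcript in every library.

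The clearest pattern lay in KO muscle on high fat diet, where the transaminase, the acyltransferase core, the phosphatase and both leucine-branch enzymes were at their lowest. For Bcat2, Dbt, Ppm1k, Ivd and Mccc1, all 3 KO high fat libraries lay below all 9 other libraries, 5 of 10 members, while the same was true of 0.628% of the 11945 genes tested. The mirror image, all 3 above the other 9, was seen in 0 members and in 1.77% of genes. This split was noticed after the values were seen and carries no test. No member passed the test after adjustment for the 11945 genes in any of the 7 comparisons, so what follows gives sizes, errors and unadjusted p-values beside adjusted ones.

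**Figure D1:**
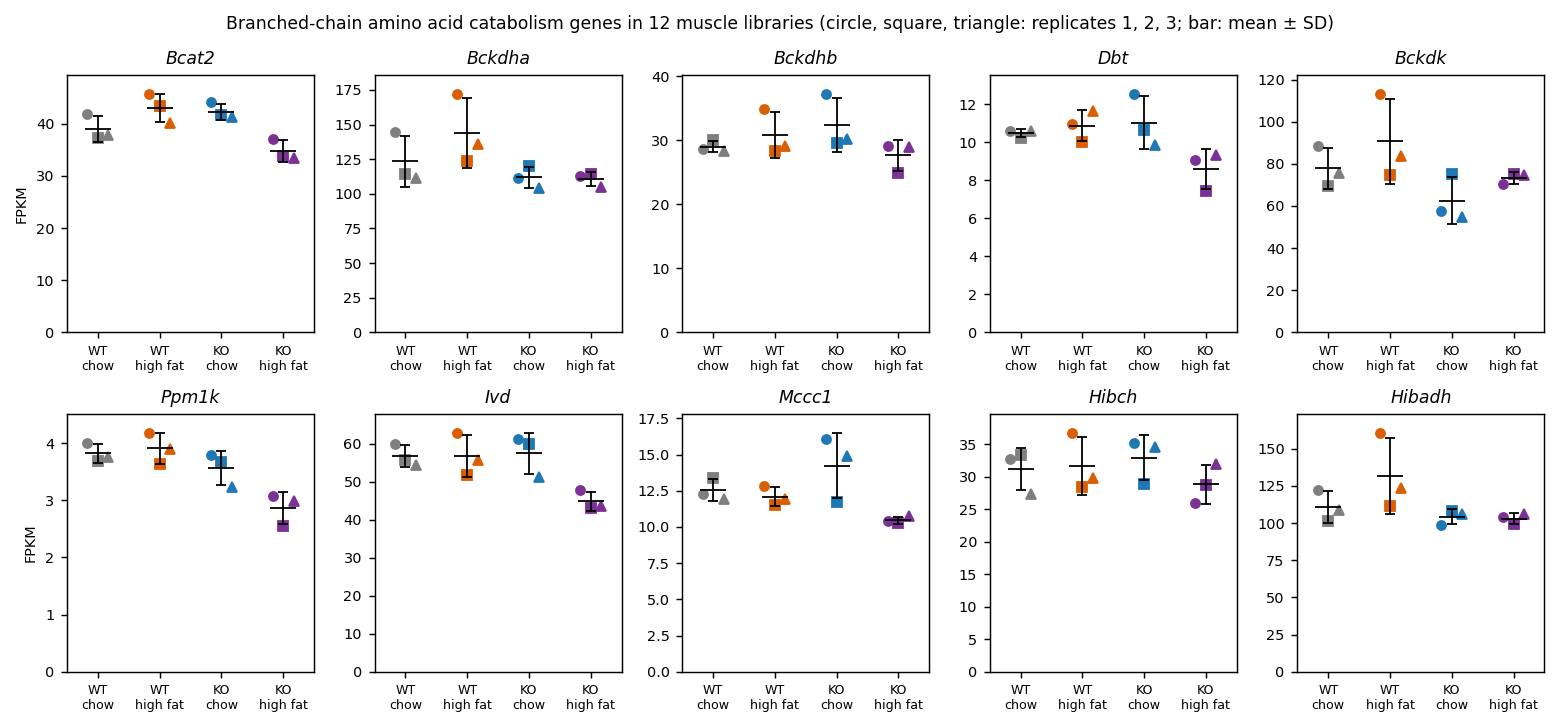
FPKM of the 10 genes (vertical axes, from 0) in the 4 groups, with circles, squares and triangles for replicates 1, 2 and 3 and bars for mean ± SD (n = 3). In Bcat2, Dbt, Ppm1k, Ivd and Mccc1 the 3 KO high fat points sit below the other 9. WT high fat 1 holds the highest point in every gene except Bckdhb, Dbt and Mccc1, where KO chow 1 holds it.

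In WT muscle, high fat feeding was accompanied by no member difference at an unadjusted p under 0.05, 0 of 10 against 8.12% of all genes, and after adjustment 0 of 10 against 0.1%. The median difference of the members, high fat minus chow on the log2(FPKM + 1) scale, was 0.06, and that of all tested genes was -0.01. The FPKM of Bcat2 was 41.9, 37.3 and 37.9 on chow and 45.6, 43.3 and 40.2 on high fat diet. Its groups overlapped, and the difference was 0.14 with a 95% confidence interval of -0.04 to 0.32. Hibadh had the largest WT difference at 0.24, interval -0.04 to 0.52 and adjusted p = 0.68 by limma. Ivd, at 60.0, 55.7 and 54.5 FPKM on chow and 62.7, 51.7 and 55.8 on high fat diet, had an interval of -0.22 to 0.21. The upper bounds for Bckdha and Bckdk were 0.51 and 0.56, which leaves differences of up to that size within the error. Left out singly, WT chow 1 or WT high fat 2 took the count from 0 to 2.

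In KO muscle, 9 of 10 members had a lower mean on high fat diet than on chow. The median member difference was -0.23 against 0.03 for all tested genes. At an unadjusted p under 0.05, 5 members were lower, where 4.73% of all genes were lower and 11.3% differed either way. After adjustment limma called 0 of the 11945 genes (0%). The non-overlapping lower groups numbered 6 of 10 members, the same 5 and Bckdhb, against 6.14% of all genes. All comparisons here share groups: the KO high fat libraries enter this contrast and the genotype contrast on high fat diet alike, so the 2 are not independent.

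Mccc1, which carries biotin in the carboxylation of 3-methylcrotonyl-CoA, read 16.1, 11.7 and 14.9 FPKM in KO chow 1, 2 and 3 and 10.4, 10.3 and 10.7 in the KO high fat libraries. The groups did not overlap, and KO chow 2 lay nearest to the high fat values. The difference was -0.40 (SE 0.10, adjusted p = 0.35), with a ratio of group means of 0.736. This value leaned on the lymphocyte-rich libraries, since without WT chow 2, KO chow 1 and KO chow 3 it was -0.15 (adjusted p = 1.00). The part of other cell types in it was not otherwise tested.

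Ivd, which oxidises isovaleryl-CoA in the step before Mccc1, read 61.1, 60.0 and 51.3 FPKM on chow and 47.7, 43.1 and 43.5 on high fat diet. Every high fat library was below every chow library, with a difference of -0.35 (SE 0.10, adjusted p = 0.36) and a ratio of means of 0.779. Without the 3 lymphocyte-rich libraries, which left KO chow 2 alone and assumed to vary like the other groups, the difference was -0.42 (adjusted p = 1.00).

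Dbt read 12.6, 10.6 and 9.85 FPKM in KO chow and 9.06, 7.41 and 9.31 in KO high fat muscle. The groups were separate but KO chow 3 lay close to KO high fat 3. Its difference was -0.32 (SE 0.10, adjusted p = 0.42). The decarboxylase subunits that join it in the complex gave smaller values. Bckdhb read 37.3, 29.6 and 30.2 FPKM on chow and 29.2, 24.9 and 28.9 on high fat diet, a difference of -0.22 with an interval of -0.46 to 0.03. Bckdha, at 111, 120 and 104 FPKM on chow and 113, 114 and 105 on high fat diet, overlapped fully and differed by -0.01 (interval -0.31 to 0.28).

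Bcat2 read 44.1, 41.6 and 41.3 FPKM in KO chow and 37.1, 33.8 and 33.4 in KO high fat muscle. The high fat values were all below the chow values, by -0.28 (SE 0.08, adjusted p = 0.38) and a ratio of means of 0.822. The 2 members of the valine branch had smaller differences. Hibch, at 35.3, 29.0 and 34.7 FPKM on chow and 25.9, 28.8 and 32.0 on high fat diet, overlapped, with an interval of -0.46 to 0.10. Hibadh, at 98.6, 108 and 106 FPKM on chow and 104, 99.1 and 106 on high fat diet, overlapped as well, with an interval of -0.30 to 0.26.

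The means of the 2 regulators differed in opposite directions in KO muscle, neither past the adjusted threshold, and the divergence was not tested. Ppm1k read 3.79, 3.67 and 3.23 FPKM on chow and 3.07, 2.55 and 2.98 on high fat diet, a difference of -0.24 (SE 0.08, adjusted p = 0.43). As a transcript of only a few FPKM, its change on the log2(FPKM + 1) scale understates the change in level, and the ratio of group means was 0.804. Bckdk was the 1 member with a higher mean on high fat diet, at 57.8, 75.4 and 54.5 FPKM on chow and 70.2, 75.03 and 74.7 on high fat diet, but its groups overlapped through KO chow 2 and the difference of 0.24 had an interval of -0.12 to 0.60. The ratio of Bckdk to Ppm1k was 15.2, 20.5 and 16.9 in KO chow and 22.8, 29.4 and 25.1 in KO high fat muscle, so all 3 high fat libraries exceeded the chow libraries. In WT muscle the ratio was 22.1, 18.8 and 20.1 on chow and 27.1, 20.6 and 21.5 on high fat diet, and the groups overlapped. KO chow 1 and 3, the lowest ratios, were also the libraries rich in lymphocyte genes.

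**Figure D2:**
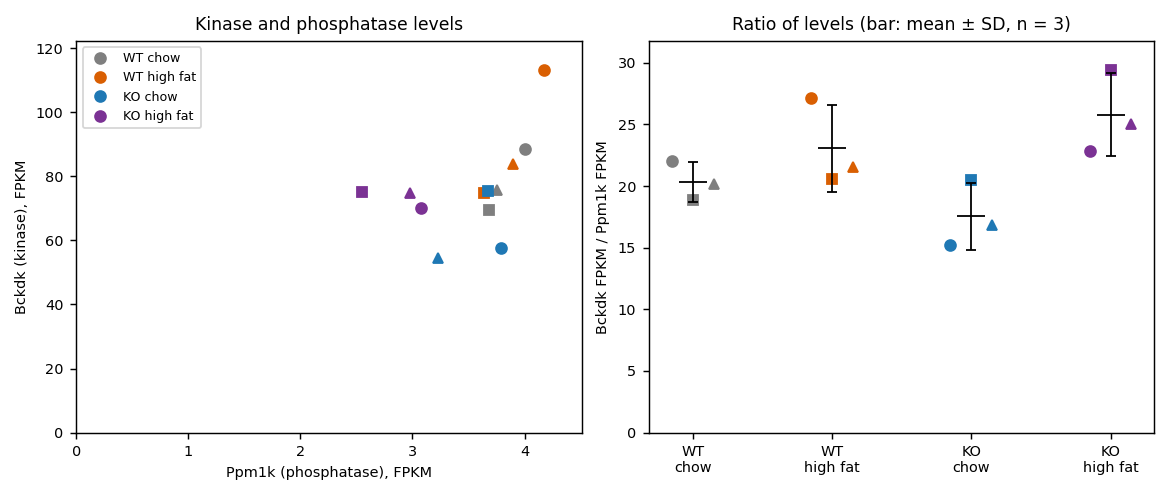
Left, Bckdk against Ppm1k FPKM in the 12 libraries, coloured by group, with circles, squares and triangles for replicates 1, 2 and 3. Right, the ratio of the 2 per library with mean ± SD (n = 3): the KO high fat ratios, 22.8 to 29.4, lie above the KO chow ratios, 15.2 to 20.5, and overlap those of WT high fat muscle.

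Markers of other cells also differed with diet in KO muscle, none past the adjusted threshold. All 7 lymphocyte genes, both brown adipocyte genes and 5 of 7 adipocyte genes had lower means on high fat diet, and the adipocyte sum was 872 to 1874 FPKM on chow and 402 to 566 on high fat diet. All 12 mitochondrial genes, by contrast, had higher means on high fat diet, with a median difference of 0.18 and none at an unadjusted p under 0.05. Without the 3 lymphocyte-rich libraries the count of members at an unadjusted p under 0.05 went from 5 to 1, Ivd, with KO chow reduced to a single library. The differences themselves were then -0.25 for Bcat2, -0.285 for Dbt, -0.28 for Ppm1k and -0.42 for Ivd, near the values with all libraries, and -0.15 for Mccc1 against -0.40. The part of these cells in the differences was not tested further.

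**Figure D3:**
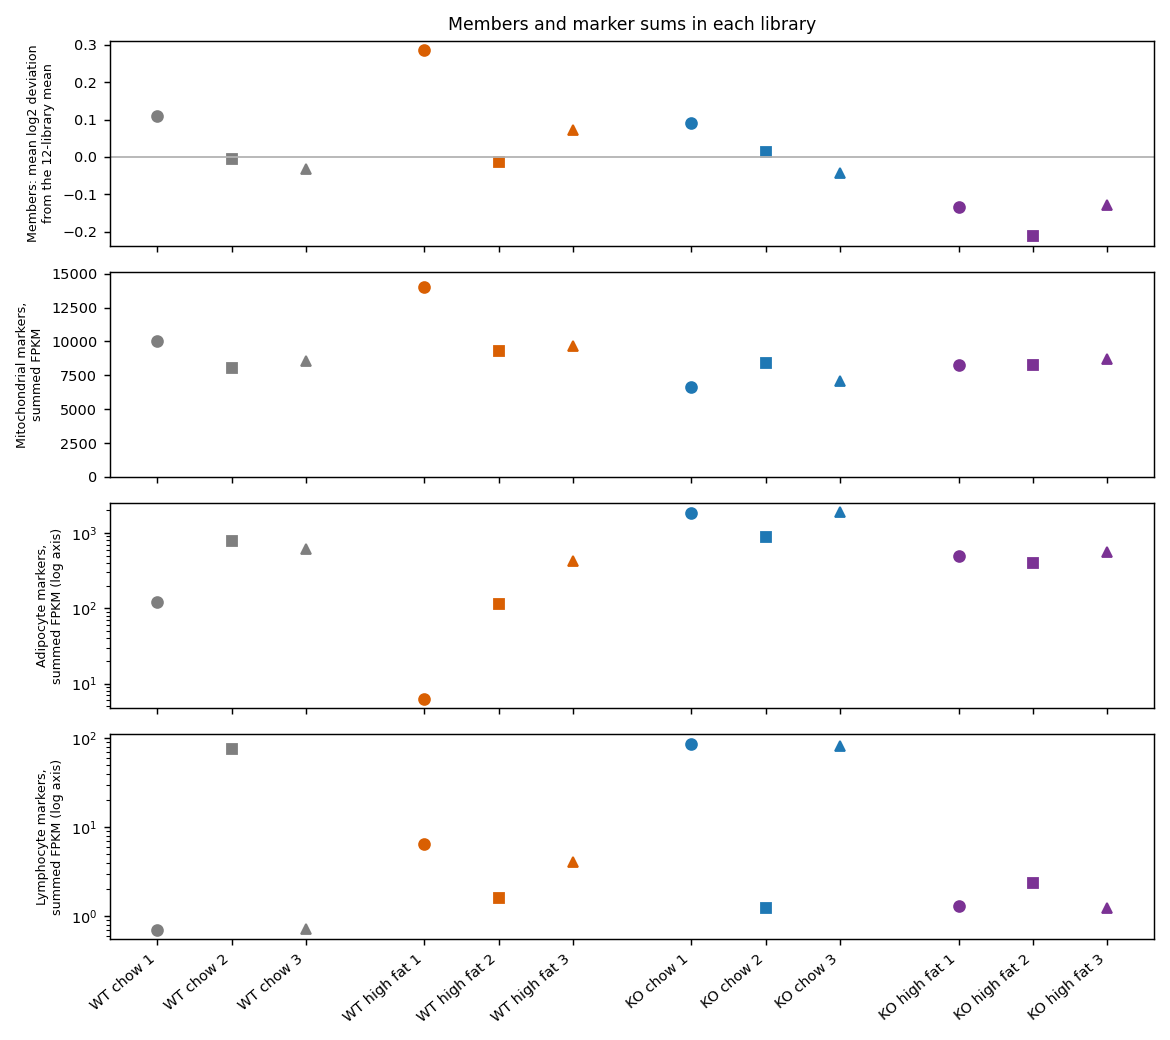
Per library (horizontal axis, symbols as above by replicate and colour by group), the mean log2 deviation of the 10 genes from their 12-library means, and the summed FPKM of mitochondrial, adipocyte and lymphocyte markers (the last 2 on log axes). The KO high fat libraries have the 3 lowest member means, and their mitochondrial sums lie within the range of the other libraries.

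On normal chow, KO and WT muscle gave no member at an unadjusted p under 0.05, 0 of 10 where 16.7% of all genes were, and 0 of 10 after adjustment where 0.0586% of genes were. The median member difference, KO minus WT, was 0.04 against -0.03 for all genes, and 6 members were higher in KO muscle. Bckdk had the largest difference at -0.32 (interval -0.68 to 0.04), its WT chow libraries reading 88.4, 69.5 and 75.7 FPKM. They overlapped with KO chow through KO chow 2. In WT chow muscle Dbt read 10.6, 10.2 and 10.6 FPKM, Ppm1k 4.01, 3.69 and 3.76, and Mccc1 12.3, 13.4 and 11.9. All of these overlapped with KO chow, and Bcat2, Dbt, Ppm1k and Ivd had differences between -0.08 and 0.12. Left out singly, KO chow 2 took the count to 2 and WT high fat 1, through the shared estimate of spread, to 1.

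On high fat diet, all 10 members had a lower mean in KO than in WT muscle, with a median difference of -0.30 against -0.01 for all tested genes. At an unadjusted p under 0.05, 6 members were lower, where 6.45% of all genes were lower and 16.2% differed either way. Non-overlapping lower groups numbered 7 of 10 members against 10.7% of all genes. After adjustment 0 members passed, where 13 genes, 0.109% of all, did. The direction is opposite to the study's own pathway listing, which places valine, leucine and isoleucine degradation among pathways higher in KO animals on this diet. That listing also places the pathway among those lower in obese WT animals. The genes behind these entries are not named there, and the disagreement was not tested. The WT high fat readings used here were given above for Bcat2 and Ivd.

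Ppm1k had the smallest p, with WT high fat readings of 4.18, 3.64 and 3.90 FPKM and a difference of -0.34 (SE 0.08, adjusted p = 0.093). The KO readings, 3.07, 2.55 and 2.98 FPKM, were all lower, and the ratio of means was 0.734. Bcat2 differed by -0.30 (adjusted p = 0.11) and Ivd by -0.33 (adjusted p = 0.14), both without overlap. Dbt read 10.9, 10.001 and 11.6 FPKM in WT high fat muscle, every value above the KO libraries, and differed by -0.31 (adjusted p = 0.17). Mccc1 read 12.9, 11.6 and 11.9 FPKM in WT high fat muscle, again without overlap, but its difference of -0.19 had an interval of -0.42 to 0.04. These 5 are the members whose KO high fat values were lowest of all libraries.

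Bckdha and Hibadh also had an unadjusted p under 0.05 between genotypes on high fat diet, without an unadjusted p under 0.05 for the interaction. Bckdha read 172, 124 and 136 FPKM in WT high fat muscle and 113, 114 and 105 in KO high fat muscle, a difference of -0.36 (SE 0.13, adjusted p = 0.21). Hibadh read 161, 112 and 124 FPKM in WT and 104, 99.1 and 106 in KO high fat muscle, a difference of -0.34 (SE 0.13, adjusted p = 0.22). Neither pair of groups overlapped, but WT high fat 1 stood far above the other WT values in both genes. Without that library the differences were -0.23 for Bckdha (adjusted p = 0.61) and -0.19 for Hibadh (adjusted p = 0.61), neither past an unadjusted p of 0.05, and 4 of the 6 members remained, Bcat2, Dbt, Ppm1k and Ivd. Bckdk followed the same library, at 113, 74.9 and 83.9 FPKM in WT high fat muscle, and differed by -0.28 with an interval of -0.64 to 0.08.

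Mitochondrial genes were also lower in KO muscle on high fat diet, though none past the adjusted threshold. All 12 had lower means, with a median difference of -0.37. At an unadjusted p under 0.05, 7 were lower, against 6.45% of all genes, with 0 after adjustment. All 4 macrophage genes and all 7 adipocyte genes had higher means, 4 and 5 of them at an unadjusted p under 0.05, where 1170 of all 11945 genes were higher. Both red blood cell entries had lower means in KO muscle at that p, with a median difference of -1.16, as did the muscle genes Mb (-0.92, adjusted p = 0.11) and Myh1 (-0.95, adjusted p = 0.11), 2 of 7 muscle markers tested. Both of these muscle genes, and the sum of the mitochondrial genes, were highest in WT high fat 1. The macrophage sum was 9.97, 26.2 and 28.0 FPKM in WT and 57.6, 89.7 and 47.7 FPKM in KO high fat muscle. The part of mitochondrial content, of fibre makeup, of these cells and of the muscle genes in the member differences was not tested.

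**Figure D4:**
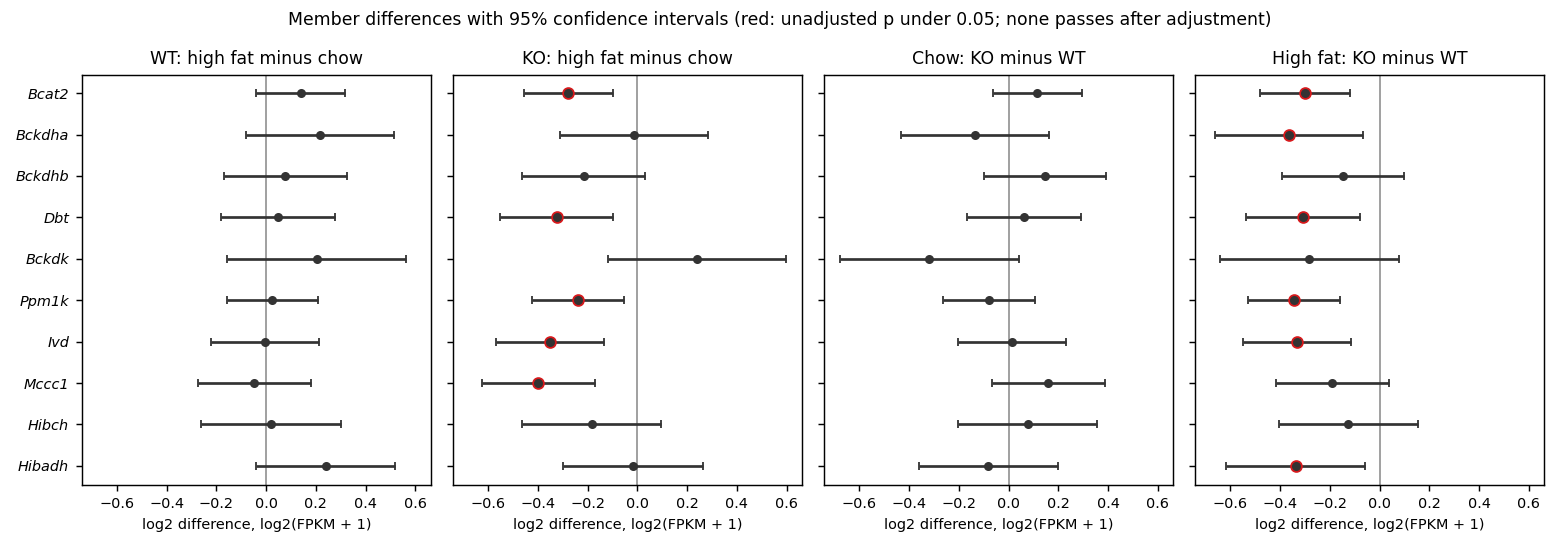
Log2(FPKM + 1) differences of the 10 genes with 95% confidence intervals in the 4 comparisons of groups. Red dots mark an unadjusted p under 0.05, none of which passed after adjustment. The red dots fall in the diet comparison in KO muscle (5 genes) and the genotype comparison on high fat diet (6 genes), all to the left of 0.

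The interaction, the diet difference in KO minus that in WT muscle, tests whether the responses differ. Its median over the members was -0.28 against 0.03 for all genes, and 9 of 10 members were negative. At an unadjusted p under 0.05, 5 members were negative, where 2.7% of all genes were negative and 6.25% differed either way, and after adjustment limma called 0 of 11945 genes (0%). Bcat2 had the largest value at -0.42 (SE 0.12, adjusted p = 0.59), followed by Dbt at -0.37, Mccc1 and Ivd at -0.35 each and Ppm1k at -0.27. For Bcat2 the diet differences were 0.14 in WT and -0.28 in KO muscle. Bckdk had an interaction of 0.04 with an interval of -0.47 to 0.54. The count was sensitive to single libraries: 1 without KO chow 1 or KO high fat 2, 2 without WT chow 2, WT chow 3, WT high fat 1 or WT high fat 3, 3 without KO chow 2 or KO high fat 3, and 0 without the 3 lymphocyte-rich libraries.

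Averaged over diets, 5 members were lower in KO muscle at an unadjusted p under 0.05, Bckdha, Bckdk, Ppm1k, Ivd and Hibadh, where 13.4% of all genes were lower and 26.5% differed either way, and 0 after adjustment, where 0.862% of genes passed. Ppm1k had the smallest p at a difference of -0.21 (adjusted p = 0.075). The count was 1 without KO chow 3, WT chow 1 or WT high fat 1, 2 without KO high fat 3, and 3 without KO high fat 1, KO high fat 2 or WT chow 3. Averaged over genotypes, Mccc1 at -0.22 (adjusted p = 0.26) and Ivd at -0.18 (adjusted p = 0.32) were lower on high fat diet, 2 of 10 members against 5.94% of all genes lower and 13.9% either way, with 0 members and 0.0586% of genes after adjustment. The count was 1 without KO chow 1, KO high fat 2, KO high fat 3 or WT high fat 3.

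Among themselves the members fell into sets that were high and low in the same libraries. Over the 12 libraries, which share groups and tissue makeup, Pearson's r was 0.92 between Ppm1k and Ivd, 0.88 between Dbt and Ppm1k and 0.84 between Dbt and Ivd. It was likewise 0.92 between Bckdha and Hibadh, 0.87 between Bckdha and Bckdk and 0.84 between Bckdk and Hibadh. Between these sets it was lower, from 0.05 for Dbt with Bckdk to 0.64 for Bckdha with Ppm1k. The lowest r of all pairs was -0.40, between Bckdk and Mccc1, which is in neither set. Bckdha, Hibadh and Bckdk were all highest in WT high fat 1, as were Ppm1k and Ivd. These are descriptions over 45 pairs and carry no p.

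The rest of the pathway was described through 19 further catabolic enzymes, 18 of them tested. Bcat1, the cytosolic transaminase, was not tested, at 0.0901 to 0.251 FPKM. On high fat diet, 17 of these 18 had lower means in KO than in WT muscle, with a median difference of -0.25. At an unadjusted p under 0.05, 10 were lower, against 6.45% of all genes, with 0 after adjustment. WT high fat 1 held the highest reading of many of these enzymes, such as Dld at 217 FPKM against 150 and 156 in WT high fat 2 and 3. It did not for others, such as Aldh6a1, which was highest in KO chow 1. How far the count of 10 rests on WT high fat 1 was not tested. In KO muscle, high fat feeding went with 1 lower enzyme of the 18 by the unadjusted p, near the 4.73% of all genes that were lower. The median was -0.03, against -0.23 for the 10 members. In WT muscle 3 were higher at that p, where 528 of all 11945 genes were, and the median was 0.13. The separation of the KO high fat libraries below the other 9 held in 2 of the 18, Aldh6a1 and Pcca, against 0.628% of all genes. For Pcca it was narrow, at most 21.243 FPKM in KO high fat muscle against 21.288 in KO chow 2. Its diet difference in KO muscle was only -0.10.

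Pcca, the biotin-carrying subunit of propionyl-CoA carboxylase, fell in KO muscle when the diets were averaged. It read 23.6 to 32.6 FPKM in the 6 WT libraries and 19.2 to 22.7 FPKM in the 6 KO libraries, which did not overlap, and the difference was -0.37 (SE 0.06, adjusted p = 0.042 by limma, 1 of 103 genes or 0.862% past the threshold). The call was lost, at adjusted p-values of up to 0.13, when KO chow 1, KO chow 3, KO high fat 1, KO high fat 2, WT chow 1, WT chow 3 or WT high fat 1 was left out, and at 0.075 with the replicate number as a block. Over all alternatives the adjusted p ran from 0.029 to 0.24. Aldh6a1, the dehydrogenase of the distal valine branch, read 77.4, 72.5 and 67.3 FPKM in KO chow and 60.5, 47.4 and 56.3 in KO high fat muscle. These groups did not overlap, and the difference was -0.40 (adjusted p = 0.32). Echs1, a short-chain enoyl-CoA hydratase, differed by -0.42 between genotypes on high fat diet (adjusted p = 0.12), and Acat1, the mitochondrial thiolase, by 0.42 between diets in WT muscle (adjusted p = 0.19). Oxct1, which activates ketone bodies, and Mcee, methylmalonyl-CoA epimerase, had genotype differences of -0.39 and -0.40 averaged over diets (adjusted p = 0.066 and 0.073).

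**Figure D5:**
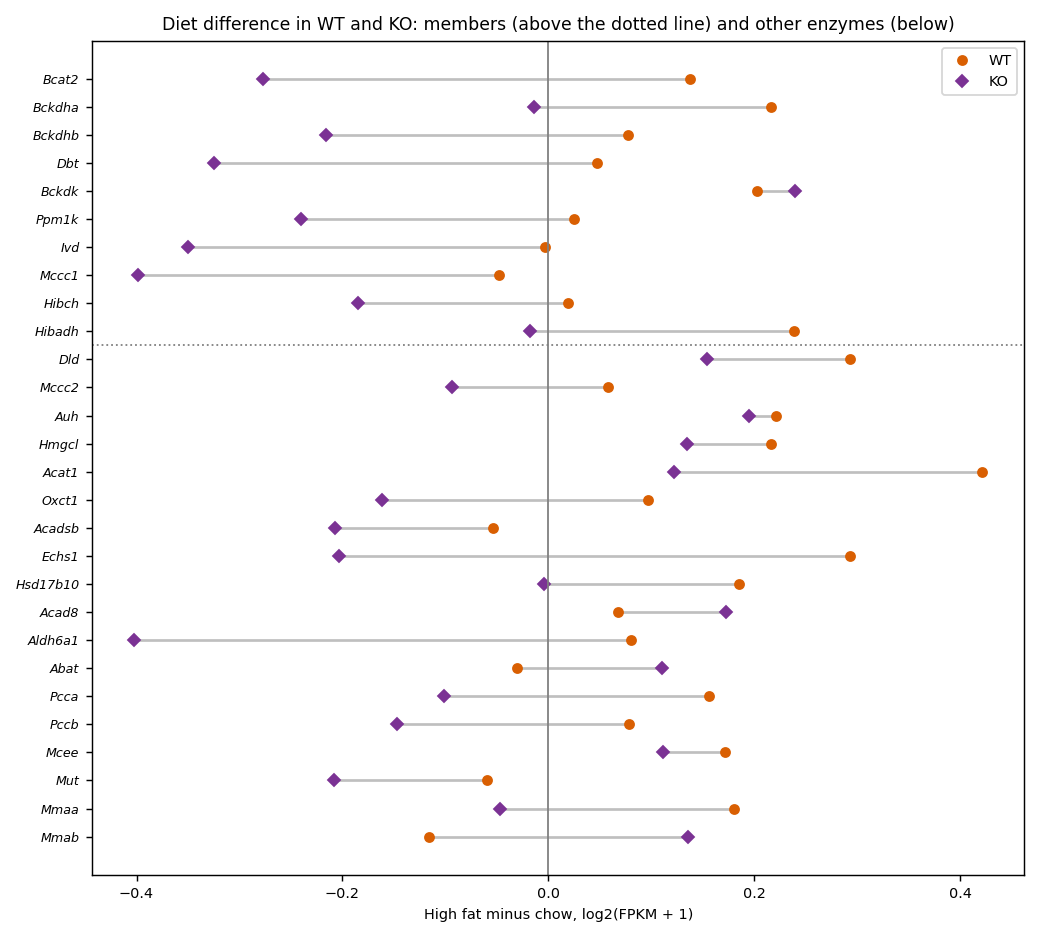
Diet differences (high fat minus chow, log2(FPKM + 1)) in WT (circles) and KO (diamonds) muscle for the 10 members, above the dotted line, and the 18 other enzymes tested, below it. The KO value lies below 0 for 9 of 10 members and for 10 of 18 other enzymes.

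Of 6 regulators of oxidative and amino acid metabolism, all had lower means in KO than in WT muscle on high fat diet. An unadjusted p under 0.05 was reached by 2 of them, where 6.45% of all genes were lower at that p. Klf15, a transcription factor known to promote amino acid catabolism in muscle, read 14.7 ± 1.39 FPKM in WT chow, 19.8 ± 2.73 in WT high fat, 17.2 ± 1.20 in KO chow and 14.9 ± 0.655 in KO high fat muscle (SD, n = 3). Its diet differences were 0.41 in WT and -0.20 in KO muscle, and the interaction was -0.60 (adjusted p = 0.50). Ppara, a nuclear receptor for fatty acids, read 2.42, 2.64 and 3.65 FPKM in KO chow and 1.86, 1.23 and 1.76 in KO high fat muscle. The groups were separate, with a difference of -0.57 (adjusted p = 0.27).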

How the data were processed

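Total RNA of proximal hind leg muscle was sequenced by the authors as paired-end reads on an Illumina HiSeq2000. The deposited values are FPKM per gene symbol and library, without pooling of replicates, and the submitters' processing notes name TopHat2 2.0.8b, Cuffdiff 2.1.1 and mm10. Samples were grouped by title. The 11945 genes that reached 1 FPKM in 3 or more libraries entered the fit, the 10 members among them. The values were tested as log2(FPKM + 1) with limma 3.58.1 in R 4.3.3 (4 group means, variance trend, 8 residual degrees of freedom) and Benjamini-Hochberg adjusted p-values were read at 0.05. A gene was called only after adjustment. The unadjusted p served for description. The fit was tested on simulated data. Depth in reads is unknown.

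The members and the lists of other genes were chosen with earlier results of these data known. All members are named. Of the other pathway genes, the 12 with the smallest p under 0.05 in any comparison are named, with the 3 genes of highest correlation to the mean member profile. Alternatives were a pseudocount of 0.1, no filter, median-of-ratios size factors, quantile normalization, the replicate number as a block, the 2 compared groups alone and each library left out. Those without the lymphocyte-rich libraries were added after the data were seen. Positions are from GENCODE M21 and promoters from RefSeq. Sums, ratios and counts were made in Python 3.11.15 and pandas 2.3.3. The weight, glucose and insulin measurements were not analysed here.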

Additional observations from a re-analysis of the deposited data

How the results depend on the processing

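No member passed the adjusted threshold in any of the 7 comparisons under any setting run, and the member differences with an unadjusted p under 0.05 kept their sign in all 448 recomputed values. Those differences were picked by that p from the same libraries, so a kept sign was likely beforehand and says little. The other member differences were not followed in this way. The counts of members at an unadjusted p under 0.05 depended more on the setting. Quantile normalization gave 1 member for genotype on chow and 3 for genotype averaged over diets. Without the 3 lymphocyte-rich libraries, an alternative chosen after seeing the data, the counts were 1 for diet in KO muscle, 1 for diet averaged over genotypes, 1 for genotype averaged over diets and 0 for the interaction. Leaving out WT high fat 1 as well gave 1, 1, 0 and 0 in the same order. With fewer libraries there were fewer residual degrees of freedom, and KO chow was then a single library assumed to vary like the other groups. With each library left out in turn, the counts ran from 0 to 2 for diet in WT, 4 to 7 for diet in KO, 0 to 2 for genotype on chow, 4 to 7 for genotype on high fat diet, 1 to 3 for diet averaged over genotypes, 1 to 5 for genotype averaged over diets and 1 to 5 for the interaction. The cause of these shifts was not tested. Same-numbered libraries did not deviate together on average (mean r of -0.07 over 18 pairs, single pairs from -0.81 to 0.39). This gave no sign that the numbers pair the samples, but a mean over so wide a spread cannot exclude a shared batch. The fit with the replicate number as a block kept 5 members for diet in KO and 6 for genotype on high fat diet, each with 0 after adjustment. Read depth is unknown, which bears most on Ppm1k, the lowest member.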

Other observations

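Amino acid transporters and genes of amino acid sensing were described beside the catabolic genes. Of 7 transporters 6 were tested, and all 6 had higher means in KO than in WT muscle on high fat diet, with a median difference of 0.19. At an unadjusted p under 0.05, 1 was higher, where 1170 of all 11945 genes were, and 0 passed after adjustment. Slc43a2, a carrier of neutral amino acids at the cell surface, read 3.51 to 4.29 FPKM in the 6 WT libraries and 4.41 to 6.72 FPKM in the 6 KO libraries, without overlap, and differed by 0.38 averaged over diets (adjusted p = 0.056 by limma). Slc7a5, the light chain of a leucine exchanger, read 2.04, 2.58 and 2.57 FPKM in WT chow and 3.52, 3.74 and 6.06 in KO chow muscle, a difference of 0.65 (adjusted p = 0.27). The highest reading came from KO chow 3, a lymphocyte-rich library. Slc6a15 was not tested, at 0.0482 to 0.467 FPKM.

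Sesn3, one of the sestrins, of which Sesn2 is known as a leucine sensor, had higher values in KO muscle averaged over diets. It read 0.460 to 0.994 FPKM in the WT and 1.45 to 3.53 FPKM in the KO libraries, and the difference was 0.85 (SE 0.16, adjusted p = 0.043 by limma). Every WT library lay under the 1 FPKM of the filter. Sesn3 thus entered the fit only through the KO libraries, where it was high, and its call is given as a description. The call was lost, at adjusted p-values of up to 0.13, when KO high fat 1, KO high fat 2, WT chow 1, WT chow 3, WT high fat 1 or WT high fat 2 was left out, and at 0.076 with the replicate number as a block and 0.070 without the filter on low values. Over all alternatives it ran from 0.031 to 0.26. Sesn1 had a difference of 0.29 (adjusted p = 0.076), with the WT and KO libraries overlapping. The Castor genes of the same list, listed under their older symbols Gatsl3 and Gatsl2, had genotype differences of 0.08 and -0.18 averaged over diets and of -0.03 and -0.29 on high fat diet (adjusted p between 0.61 and 0.95).

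The genes whose log2 profile over the 12 libraries was most like the mean of the 10 members were Oplah (Pearson's r 0.92), Echs1 (0.90) and Dut (0.88), as a description. Oplah, 5-oxoprolinase of the glutathione cycle, averaged 21.8 FPKM in WT chow, 26.2 in WT high fat, 22.4 in KO chow and 18.8 in KO high fat muscle.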
